A study of Mus musculus with 30 samples.

Results

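Acetylation of histone H3 at lysine 27 (H3K27ac) marks active promoters and enhancers, and 381 stretches of the mouse genome carried it in every wild-type lymphoid list of this study and in no Crebbp-null list. The 6 deposited H3K27ac peak lists were merged into 41849 regions, and a region was chosen when the wild-type progenitor list and both wild-type B cell lists had a peak in it while the Crebbp-null progenitor list and both Crebbp-null disease lists had none. The chosen regions were 0.91% of all merged regions and 3.35% of the 11374 regions that all 3 wild-type lists shared. The regions were selected on these measured H3K27ac peaks, so their H3K27ac values are given as a description. H3K18ac, H3K56ac, CBP binding, position and sequence were not part of the choice. Marks that accompany H3K27ac in the same groups of cells can still follow it.

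All mice were C57BL/6 and carried the floxed allele of Crebbp on both chromosomes (CBPfl/fl). Crebbp-null animals also carried Mx-Cre (CBPfl/fl:Mx-Cre+), a recombinase gene under an interferon-inducible promoter that is active in blood cells and in other tissues, and the wild-type animals lacked it (CBPfl/fl:Mx-Cre-). Crebbp-null and wild-type progenitors were bone marrow cells depleted of lineage markers and sorted as Lin- IL7ra+, with 1 H3K27ac list per genotype. Crebbp-null lymphoproliferative disease (LPD) was bulk, unsorted splenocytes, and its reference was wild-type splenocytes sorted for B220, with 2 lists each for H3K27ac, H3K18ac and H3K56ac, and 1 CBP list from the B cells. Ages, the induction of Cre and whether the lists of a group came from separate animals are not given in the sources used here, so the spread between lists may be technical.

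CBP, the protein that Crebbp encodes, is a histone acetyltransferase that is brought to chromatin by sequence-specific factors. The best known is CREB, which binds the cAMP response element and recruits CBP when phosphorylated. CBP and its paralogue p300, encoded by Ep300, acetylate H3K27 and H3K18, and CBP has been tied to H3K56 acetylation. In B cells CREBBP is a frequent target of mutation in lymphoma, where enhancers of signalling and antigen presentation genes have been described as sensitive to its loss.

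The 13125 H3K27ac peaks of Crebbp-null progenitors and the 31924 and 27581 of Crebbp-null LPD stood beside 17124 peaks in wild-type progenitors and 30523 and 30198 in wild-type B cells. The lists of the other marks were longer in LPD, with 39529 and 35247 H3K18ac peaks, against 22485 and 23456 in B cells, and 28222 and 28934 H3K56ac peaks, against 20392 and 18763 in B cells. The lists hold positions only, so read depth is unknown, and no peak means that none was called. Of 6 B cell markers, 6 had an H3K27ac peak in both LPD lists (44.1 and 30.7 kb summed) and in both B cell lists (36.7 and 35.6 kb), while both progenitor lists had peaks at 4 of 6 lymphoid progenitor markers and none at Rag1 and Vpreb1. Erythroid markers had H3K27ac peaks at 2 of 6 genes in each LPD list (3.80 and 2.89 kb), against 1 of 6 in each B cell list (0.797 and 0.742 kb). Of 7 myeloid markers, 1 had 0.251 kb of H3K27ac in 1 LPD list and none was marked in the other LPD list or either B cell list. Of 7 T and NK markers only Lck had H3K27ac, with Cd3e, Cd3g, Cd8a and Cd4 at 0. H3K56ac, however, lay at 2 of the 7, Lck and Cd4, in both LPD lists, against 1 of 7 in both B cell lists. Of the myeloid markers, 2 had H3K18ac (0.471 kb) and 1 had H3K56ac (0.426 kb) in LPD list 1. None had either mark in LPD list 2 or the B cell lists. The part of such cells was not tested, and in unsorted spleen a loss of cells with a mark and a loss of the mark in the cells cannot be told apart. Peaks on the Y chromosome numbered 0 in every Crebbp-null list, against 1 in wild-type progenitors and 4 in each B cell H3K27ac list. Genotype and the sex of the animals therefore cannot be told apart. The sex chromosomes hold 5 of the 381 regions, 1 of them at Uty on Y, and results on the 376 autosomal regions are given beside the main ones.

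Sequence could be read only for promoter windows, so the chosen regions away from coding starts, which are most of them, were not searched. Of the coding promoter windows in RefSeq (300 bases, 250 before to 50 after the start, build GRCm38.p6, which has the mm10 coordinates of the lists), 54 overlapped a chosen region, by 5 bases at the least and 134.5 at the median, so much of the searched sequence lay outside the regions. A window lay wholly inside a region at 10 genes. Selenop, Ralgds, Dalrd3 and Il2ra, 4 of the 10, are shown as examples of different states of the other marks and were picked after their values were seen. Capitals mark TGACG, the core of the cAMP response element, or its reverse complement CGTCA. All are on the plus strand: Selenop at chr15:3270517-3270816, the first of 3 windows of that gene in the region, Ralgds at chr2:28533214-28533513, Dalrd3 at chr9:108569642-108569941 and Il2ra at chr2:11642542-11642841.
Selenop: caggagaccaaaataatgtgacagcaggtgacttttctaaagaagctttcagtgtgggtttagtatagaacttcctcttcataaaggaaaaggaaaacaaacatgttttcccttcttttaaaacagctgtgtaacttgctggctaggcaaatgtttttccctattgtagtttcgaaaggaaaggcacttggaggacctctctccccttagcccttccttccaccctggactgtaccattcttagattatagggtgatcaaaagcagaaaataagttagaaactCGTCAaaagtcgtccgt
Ralgds: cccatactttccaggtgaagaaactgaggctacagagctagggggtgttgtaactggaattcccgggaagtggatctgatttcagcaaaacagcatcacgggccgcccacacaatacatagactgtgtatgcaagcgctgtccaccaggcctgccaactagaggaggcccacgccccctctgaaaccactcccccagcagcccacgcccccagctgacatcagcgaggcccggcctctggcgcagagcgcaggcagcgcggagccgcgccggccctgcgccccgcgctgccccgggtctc
Dalrd3: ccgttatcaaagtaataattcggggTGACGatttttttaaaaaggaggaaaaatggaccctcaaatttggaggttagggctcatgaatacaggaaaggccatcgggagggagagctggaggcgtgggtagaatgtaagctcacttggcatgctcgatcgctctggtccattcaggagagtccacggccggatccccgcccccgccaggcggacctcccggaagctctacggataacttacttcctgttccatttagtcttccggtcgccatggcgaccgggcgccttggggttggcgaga
Il2ra: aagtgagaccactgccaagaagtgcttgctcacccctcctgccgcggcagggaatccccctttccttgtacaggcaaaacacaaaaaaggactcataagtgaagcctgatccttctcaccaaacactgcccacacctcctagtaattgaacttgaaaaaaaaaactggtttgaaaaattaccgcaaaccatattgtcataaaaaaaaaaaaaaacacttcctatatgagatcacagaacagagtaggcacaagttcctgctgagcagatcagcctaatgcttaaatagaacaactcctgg

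At Selenop, the gene of a selenium transport protein, the other marks went with H3K27ac: H3K18ac covered 0 and 0 bp in LPD, against 345 and 370 bp in wild-type B cells, and H3K56ac 0 and 0 bp in LPD, against 499 and 346 bp in B cells. At Ralgds, an exchange factor gene of the Ras pathway, H3K18ac covered 286 and 0 bp in LPD, against 910 and 890 bp in B cells, and H3K56ac 0 and 0 bp in LPD, against 671 and 571 bp in B cells. The Dalrd3 region had H3K18ac in 1 B cell list (323 bp) and the Il2ra region had neither mark in any list.

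TGACG or its reverse complement was present in 15 of the 54 windows (27.8%), against 23.6% of all 21254 coding promoter windows and 40.0% of the 6720 windows in regions of all 6 H3K27ac lists. In 8 windows a match lay within the bases shared with a chosen region. The overlapping windows of Selenop hold the same match and are counted separately in the 15 and in the 8. The full element TGACGTCA, which contains TGACG and overlaps both orientations of it, was present in 1 window (1.85%), that of Pdpr and outside the 24 bases shared with the region, against 2.23% of all windows and 4.38% of those in regions of all 6 lists. On both strands, the GC box GGGCGG matched 63.0% of the 54 windows, against 46.2% of all windows and 69.4% of those in regions of all 6 lists. Median GC content was 62.2% in the 54 windows, 62.3% in those in regions of all 6 lists and 56.3% in all windows. The AT-rich window of Il2ra, the gene of the interleukin-2 receptor alpha chain, had 3 CpG dinucleotides. Windows on chromosome 18 were not looked up. A match describes the letters in a window, not a bound site.

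The H3K27ac peaks that defined the set were short in progenitors and longer in B cells. Their length had a median of 292 bp in wild-type progenitors (lowest 200, highest 1661) and of 694 and 651 bp in the B cell lists (highest 4257 and 3972). In wild-type progenitors 52.2% of the chosen regions had under 300 bp of peak, against 5.42% of the 8362 regions of all 6 lists, whose median was 704 bp. The narrowest peak in any list was 200 bp, so many of the progenitor peaks lay near the lower end of what was listed. At the edge of the rule, 5643 regions had both B cell lists and no null list but no progenitor peak, and 591 regions of the 3 wild-type lists had a peak in exactly 1 null list. The nearest null peak lay a median of 6138.5 bp outside a chosen region, and 100 of the 381 (26.2%) had one within 1 kb.

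**Figure D1:**
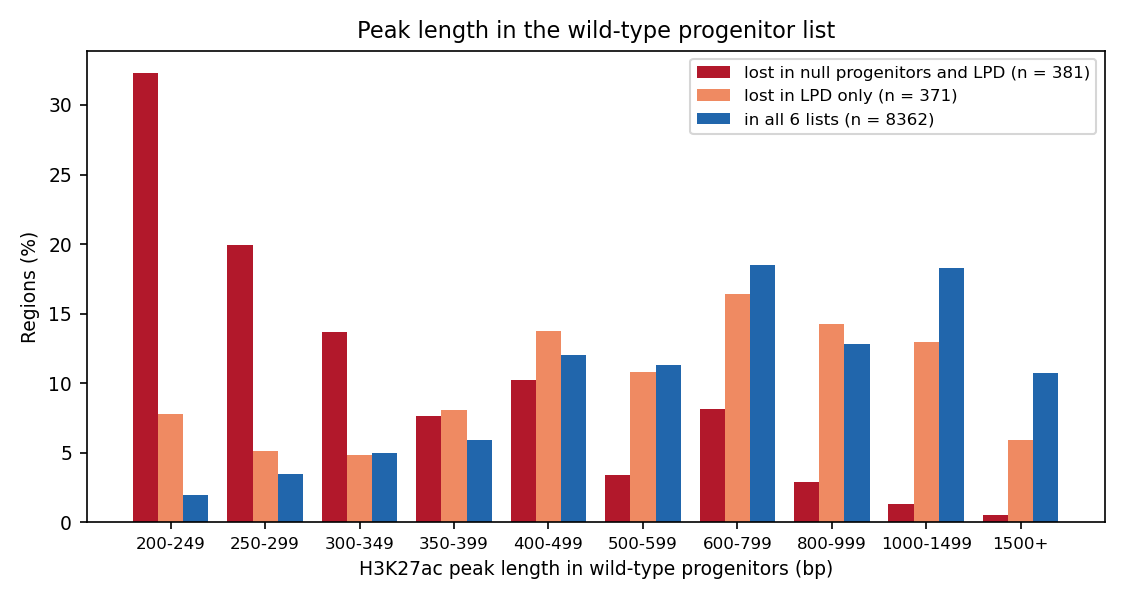
Share of regions (%) by H3K27ac peak length in wild-type progenitors (bp), for regions lost in null progenitors and LPD, regions lost in LPD only and regions of all 6 lists. In the first set 32.3% fall in the lowest bin, from 200 bp to under 250 bp, against 7.82% of the regions lost in LPD only and 1.96% of those in all 6 lists.

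The rule's own H3K27ac calls divide the 11374 regions of the 3 wild-type lists as follows, given as a description. Null progenitors lacked a peak in 2422 of them and both LPD lists lacked one in 752, of which 371 had a peak in null progenitors. The remainder of the 2422 comprised 1821 regions that both LPD lists had, 212 with a peak in LPD list 1 alone and 8 with a peak in LPD list 2 alone. Merged and chosen anew without LPD list 1, the set numbered 603. It numbered 390 without LPD list 2, and 471 and 457 without B cell list 1 and 2. With only peaks of at least 500 bp in every list, 197 regions met the rule, and 27 of them overlapped the 381.

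At the chosen regions the other 2 acetylation marks were also less frequent in LPD, although their lists were longer there. H3K18ac peaks lay in 39.4 and 24.4% of the 381 regions in LPD, against 60.6 and 65.4% in wild-type B cells. Means were 31.9% ± 10.6 in LPD and 63.0% ± 3.34 in B cells (SD, n = 2 each), a difference of -31.1 percentage points. The groups did not overlap, and the exact two-sided permutation test over the 4 lists gave p = 0.333, the smallest that 2 against 2 allows, so no such comparison here could pass the usual threshold. H3K56ac peaks lay in 10.8 and 10.5% of the regions in LPD, against 52.0 and 47.0% in B cells. Means were 10.6% ± 0.186 in LPD and 49.5% ± 3.53 in B cells (SD, n = 2 each), a difference of -38.8 points (p = 0.333, exact permutation test). On autosomes only, the differences were -30.9 points for H3K18ac and -39.0 points for H3K56ac. Without LPD H3K27ac list 1 in the rule, the differences were -17.5 points for H3K18ac and -24.7 points for H3K56ac. With H3K27ac lists of equal length the H3K18ac difference was -18.3 points.

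Regions of all 6 H3K27ac lists, matched 1 to 1 on mean wild-type length, went the other way. The match left position and progenitor length unlike. Within 1 kb of a gene end lay 79.8% of the matched regions, against 22.6% of the chosen ones. Their median length in wild-type progenitors was 439 bp, against 292 bp in the chosen ones. H3K18ac peaks lay in 96.6 and 90.0% of the matched regions in LPD, against 73.8 and 75.1% in B cells. For H3K56ac the shares were 95.3 and 96.6% in LPD, against 87.1 and 81.4% in B cells. The difference between chosen and matched regions, LPD minus B cells, was -50 points for H3K18ac and -50.5 points for H3K56ac (p = 0.333 each, exact permutation test over 4 lists). With H3K27ac lists of equal length they were -22.0 and -32.9 points. The rule itself contrasted LPD with B cells on H3K27ac, and the matched regions had H3K27ac in both groups. A mark that accompanies H3K27ac would follow that choice, so the direction of these differences is not independent of the rule. The same holds for the differences at the chosen regions alone. In B cells alone the chosen regions already had fewer peaks than the matched ones, by 13.1 and 9.71 points for H3K18ac and by 35.2 and 34.4 points for H3K56ac. Over all 41849 merged regions the share with H3K18ac was 65.5 and 54.4% in LPD, against 37.6 and 39.0% in B cells, and that with H3K56ac was 47.2 and 49.2% in LPD, against 34.5 and 32.1% in B cells.

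Regions lost in 1 setting only were compared next. The 371 regions lost in both LPD lists and kept in null progenitors had H3K18ac in 43.4 and 30.7% in LPD, against 75.5 and 79.0% in B cells, and H3K56ac in 16.2 and 18.1% in LPD, against 69.3 and 61.7% in B cells. The LPD-minus-B difference of the chosen regions was smaller than theirs by 9.06 points for H3K18ac and 9.54 points for H3K56ac (p = 0.333 each, exact permutation test). In contrast, the 1821 regions lost in null progenitors and kept in LPD had H3K18ac in 96.8 and 89.0% in LPD, against 72.8 and 75.5% in B cells. Their H3K56ac shares were 92.0 and 93.5% in LPD, against 76.2 and 71.6% in B cells. Other marks in LPD were thus low in both sets whose H3K27ac was missing from LPD and high where H3K27ac was missing from null progenitors alone. No H3K18ac or H3K56ac list of progenitors was analysed here.

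**Figure D2:**
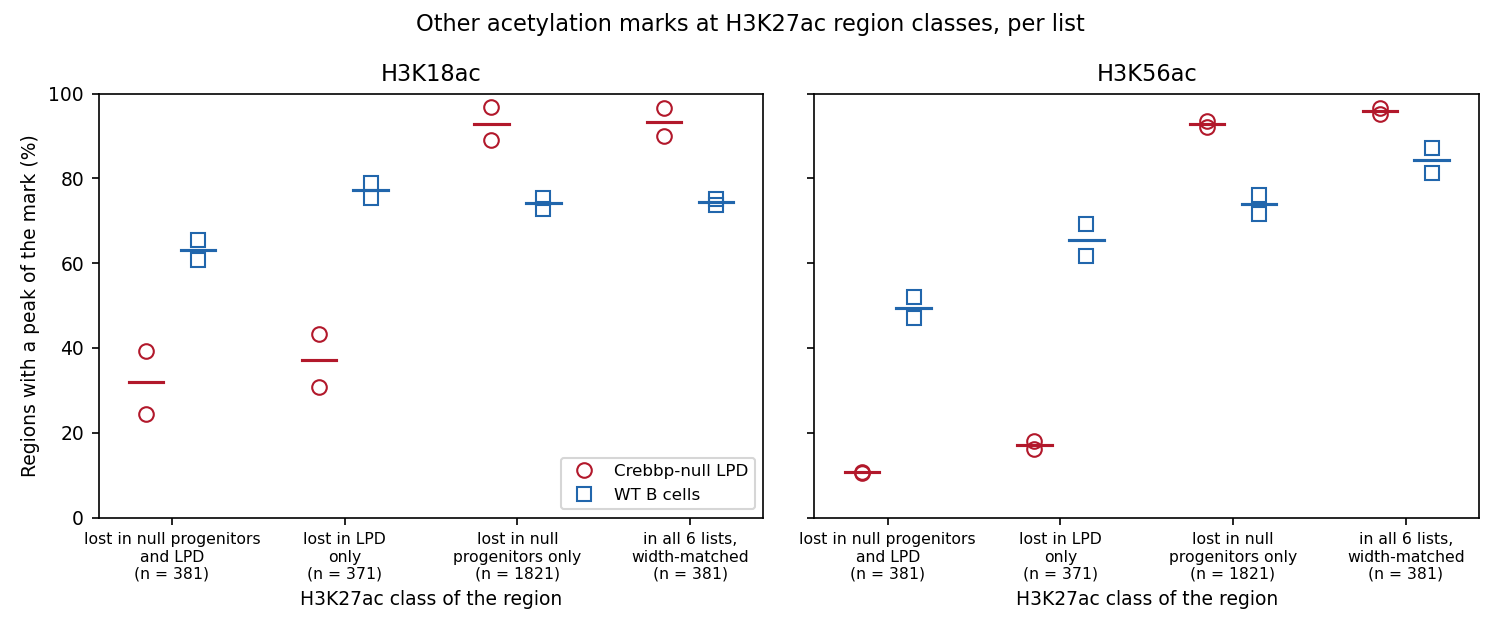
Share of regions (%) with a peak of H3K18ac (left panel) or H3K56ac (right panel), for 4 classes of H3K27ac region. Circles are the 2 Crebbp-null LPD lists, squares the 2 wild-type B cell lists and bars their means. LPD lies below B cells for the regions lost in null progenitors and LPD (10.8 and 10.5% against 52.0 and 47.0% for H3K56ac) and for those lost in LPD only, and above B cells in the other 2 classes.

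Region by region, the other marks followed H3K27ac unevenly. H3K18ac was lost (in both B cell lists and neither LPD list) at 102 of the 381 regions (26.8%), against 2.91% of all merged regions, and kept in all 4 lists at 60 (15.7%), against 29% of all merged regions. It was gained (both LPD lists, neither B cell list) at 6 regions, against 19.3% of all merged regions, and was in none of the 4 lists at 71 (18.6%), against 27.9%. Of the 205 chosen regions with H3K18ac in both B cell lists, 49.8% lost it, against 8.58% of all such regions. H3K56ac was lost at 117 regions (30.7%), against 2.39% of all merged regions, kept at 13 (3.41%), against 25.6%, gained at 4, against 13.7%, and in none of the 4 lists at 140 (36.7%), against 41.8%. Of the 149 with H3K56ac in both B cell lists, 78.5% lost it, against 8.22% of all such regions. The 371 regions lost in LPD only lost H3K18ac at 33.2% and H3K56ac at 38.0%, more often than the chosen ones. Among those with the mark in both B cell lists, 46.8% lost H3K18ac and 67.1% lost H3K56ac. Frequent loss of the other marks was therefore not particular to the chosen regions.

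Both marks were lost at 60 regions (15.7%), against 0.875% of all merged regions, and both were kept at 8, against 22.1%. At 16 regions H3K18ac was kept while H3K56ac was lost, against 0.564% of all merged regions, and the reverse was seen at 0 regions, against 0.0382%. In all, 204 regions (53.5%) had no peak of either mark in any LPD list, against 30.7%. Single lists moved these counts. H3K18ac was kept at 25.7% of regions without LPD H3K18ac list 2, and at 23.9% without LPD H3K27ac list 1, where it was lost at 17.4%. H3K56ac was kept at 5.77 and 6.04% without LPD H3K56ac list 1 and 2, and at 10.4% without LPD H3K27ac list 1.

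In summed length, H3K18ac peaks covered 71.6 and 37.5 kb of the chosen regions in LPD, against 144 and 151 kb in B cells, a log2 ratio of -1.44. H3K56ac peaks covered 11.8 and 11.7 kb in LPD, against 91.5 and 80.0 kb in B cells, a log2 ratio of -2.87. The same log2 ratios were 0.52 and 0.59 in the matched regions and 0.74 and 0.79 over all merged regions. Loss of the other marks was more frequent in longer regions. In the 126 longest, H3K18ac was lost at 42.1% and H3K56ac at 50%, and in the 128 shortest at 13.3 and 17.97%. The shortest regions also carried the marks less often in B cells, with H3K56ac in 38.3 and 33.6% there, against 72.2 and 68.3% of the longest. At regions with no region of all 6 lists within 1 kb, the log2 ratio of summed H3K18ac was -1.53, and at the 48 regions with one it was -0.24.

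**Figure D3:**
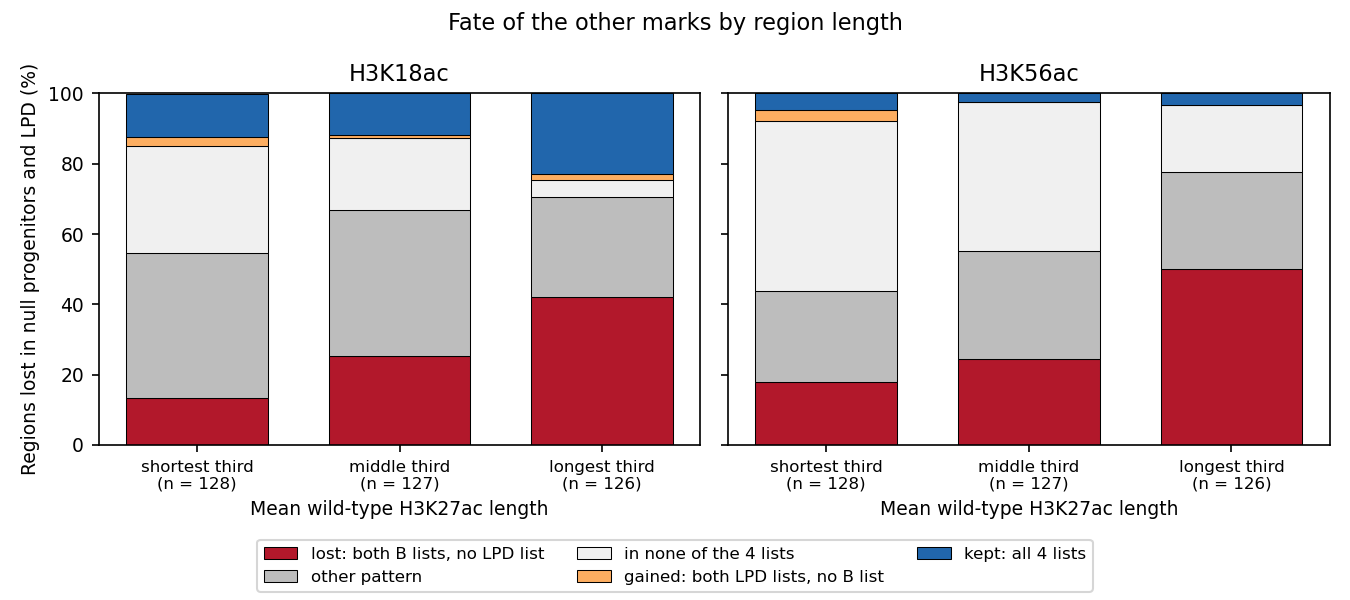
Fate of H3K18ac (left panel) and H3K56ac (right panel) at the 381 regions, as the share (%) in each class, with regions split into 3 groups by mean wild-type H3K27ac length. Among the 126 longest regions 42.1% lost H3K18ac and 50% lost H3K56ac, against 13.3 and 17.97% of the 128 shortest.

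The longest region, chr15:91631910-91636296, lay 36495 bp from the nearer end of Lrrk2, the gene of a leucine-rich repeat kinase, and 1401870 bp from the nearest null H3K27ac peak. Its H3K27ac covered 202 bp in wild-type progenitors and 4257 and 3972 bp in B cells. H3K18ac covered 0 and 0 bp in LPD, against 2621 and 2472 bp in B cells, and H3K56ac 0 and 0 bp in LPD, against 1626 and 1736 bp in B cells. Both other marks were thus missing in LPD along with H3K27ac. The second region, chr13:23911567-23915779, overlapped the end of Slc17a4, a solute carrier gene, and showed the same pattern, with H3K18ac at 0 and 0 bp in LPD, against 2395 and 2485 bp in B cells, and H3K56ac at 0 and 0 bp in LPD, against 1129 and 1441 bp in B cells. The third, chr13:117031816-117035385, lay 5797 bp from Parp8, which encodes an ADP-ribosyltransferase of the PARP family, and had one of the longer progenitor peaks of this group, 906 bp. There H3K18ac covered 0 and 0 bp in LPD, against 1495 and 1270 bp in B cells.

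A pair of regions lay inside Wwox, an oxidoreductase gene at a chromosomal fragile site. At chr8:114801333-114804586, H3K18ac covered 0 and 0 bp in LPD, against 2745 and 2985 bp in B cells, and at chr8:114814788-114817298 it covered 0 and 0 bp in LPD, against 2228 and 2236 bp in B cells. The same loss of both marks was found inside Acsf2, an acyl-CoA synthetase gene, and Mypn, which encodes a muscle sarcomere protein. It was also found inside Snx29, a sorting nexin gene. Of the 20 longest regions 10 lost both marks, and H3K18ac was kept at 6 and H3K56ac at 1.

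A region inside Itgb3, the integrin beta 3 gene, differed: at chr11:104629493-104632843 H3K18ac covered 2119 and 1241 bp in LPD, against 1527 and 2305 bp in B cells, while H3K56ac covered 227 and 0 bp in LPD, against 217 and 456 bp in B cells. H3K18ac in that region therefore overlapped between the groups although H3K27ac was missing from LPD. A second Itgb3 region, chr11:104607556-104610016, had 523 and 0 bp of H3K18ac in LPD, against 732 and 993 bp in B cells. H3K18ac was also kept at Cotl1, which encodes an actin-binding protein, at Amz2, a metallopeptidase gene, at Klhl14, a kelch-like gene, and at 2 regions with no coding gene within 50 kb. At Cotl1 it covered 1429 and 501 bp in LPD, against 1387 and 1288 bp in B cells, while H3K56ac covered 0 and 0 bp in LPD, against 714 and 386 bp in B cells. The fourth longest region, inside Foxp1, a forkhead transcription factor gene with a role in B cell development, had little of the other marks in any list (H3K18ac 204 and 0 bp in LPD, against 224 and 0 bp in B cells). Its nearest null H3K27ac peak lay 3328 bp away, but a region of all 6 lists lay 202 bp away. Its H3K27ac covered 260 bp in wild-type progenitors, and 8 of the 11 wild-type regions of Foxp1 were in all 6 lists. At Sgms1, a sphingomyelin synthase gene, H3K18ac covered 619 and 0 bp in LPD, against 405 and 294 bp in B cells.

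**Figure D4:**
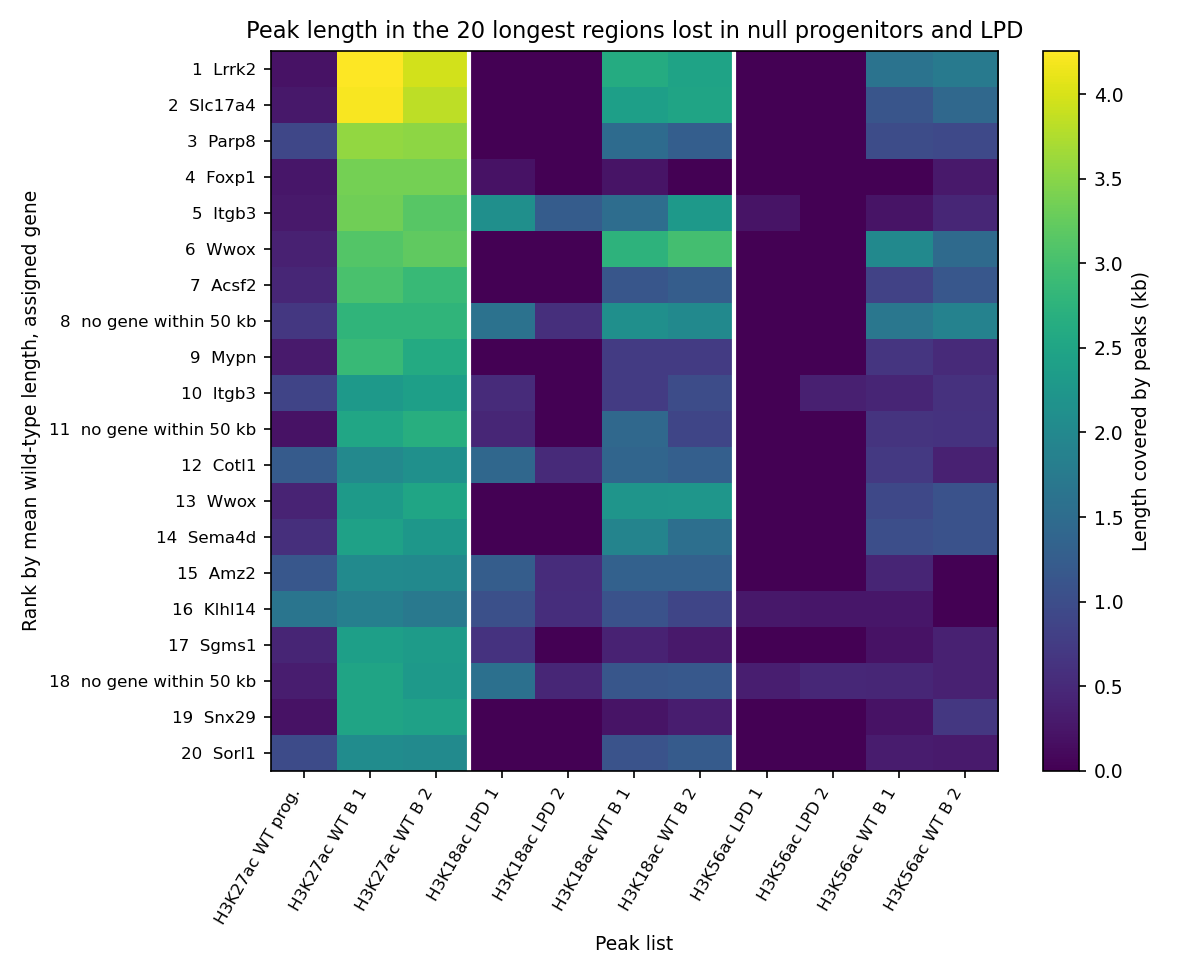
Length (kb) covered by peaks of H3K27ac, H3K18ac and H3K56ac in the 20 longest regions (rows, by mean wild-type H3K27ac length) in each list (columns, LPD left of B cells). The null H3K27ac lists are left out because the rule sets them to 0. Rows such as Lrrk2, Slc17a4 and Wwox are at 0 in all 4 LPD columns, whereas the first Itgb3 row has 2119 and 1241 bp of H3K18ac in LPD.

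All 8 regions that kept both other marks in every list can be named. The 5 longest were at chr3:52637655-52640197, chr2:30707297-30709247, 12654 bp from Ifngr2, the gene of an interferon gamma receptor chain, chr3:54591969-54593439 and chr13:107094776-107095648, and the shorter ones were at Whrn, Cnn3 and Pdpr. At the Ifngr2 region H3K18ac covered 1367 and 970 bp in LPD, against 1164 and 513 bp in B cells, and H3K56ac covered 612 and 408 bp in LPD, against 221 and 694 bp in B cells. Of the 8, 4 had no coding gene within 50 kb. The chosen regions at chr3:52567067-52569738 and chr3:52637655-52640197 had Foxo1, a forkhead factor gene needed for early B cell development, as the nearest coding start, 298730 and 369318 bp away. H3K18ac in the nearer one covered 462 and 0 bp in LPD, against 1446 and 882 bp in B cells.

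Most of the regions lay away from gene starts, as did most merged regions. Of the 361 regions that could be placed relative to coding starts, 76 (21.1%) were within 1 kb of one, against 26.1% of all merged regions. The median distance was 17777 bp, against 0 bp in the matched regions and 13798.5 bp over all merged regions. By gene ends, which could be used for all 381, 22.6% lay within 1 kb, against 30.2% of all merged regions. The share was 79.8% in the matched regions and 69.3% in regions of all 6 lists matched on progenitor and B cell length together. It was 29.1% in those lost in LPD only and 54.9% in those lost in null progenitors only. Inside a coding gene lay 60.6%, against 70.8% of all merged regions. No coding gene lay within 50 kb of 40 regions (10.5%), against 5.98% of all merged regions. Whether a region inside a gene was exonic or intronic is not known, since the gene table gives spans only. The 5 longest regions at a gene end were at Slc17a4, Itgb3, Ggt5, a gamma-glutamyltransferase family gene, Nemp2, a nuclear envelope protein gene, and B3gnt7, a glycosyltransferase gene. At Nemp2, H3K18ac covered 432 and 373 bp in LPD, against 0 and 0 bp in B cells. The fall in H3K56ac held on either side of this divide: the 86 regions at gene ends had 19.8 and 19.8% in LPD, against 60.5 and 53.5% in B cells, and the other 295 had 8.14 and 7.80% in LPD, against 49.5 and 45.1% in B cells.

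**Figure D5:**
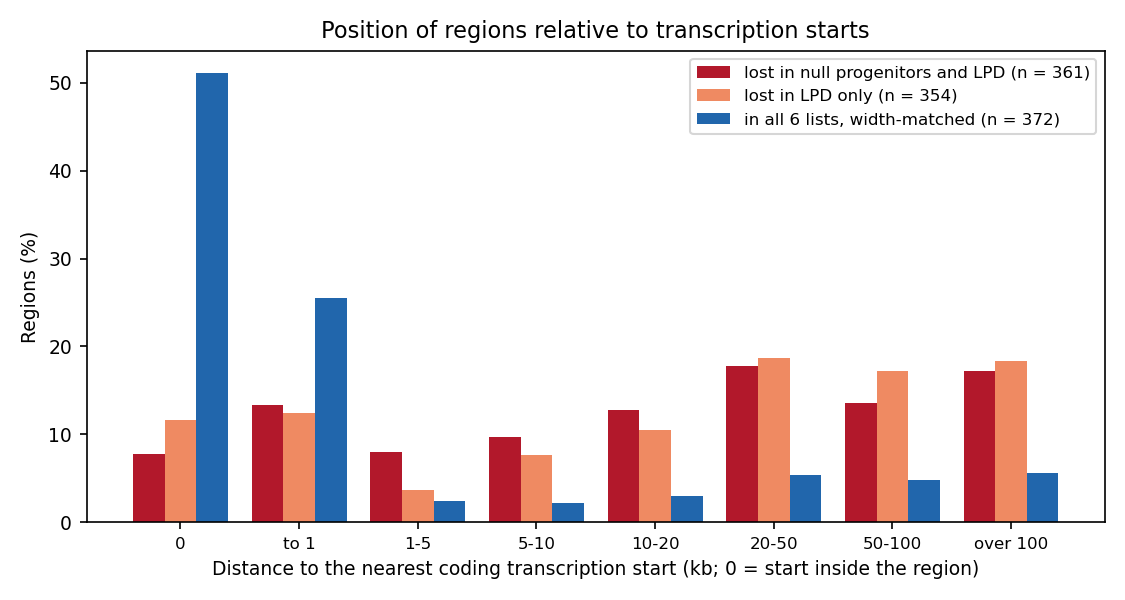
Share of regions (%) by distance to the nearest coding transcription start (kb), for regions lost in null progenitors and LPD, regions lost in LPD only and width-matched regions of all 6 lists, chromosome 18 left out. A start lies inside 7.76% of the regions lost in null progenitors and LPD, 11.6% of those lost in LPD only and 51.1% of the matched regions.

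CBP itself was seldom called at the chosen regions, as over all merged regions. In wild-type B cells 5 of the 381 (1.31%, exact Clopper-Pearson 95% interval 0.427 to 3.04%, counting error only) had 1 of the 1000 CBP peaks, against 14 of 381 matched regions (3.67%), 6.79% of all regions of all 6 lists and 2.14% of all merged regions. When regions were matched on progenitor and B cell length together, 5 of 381 had one. The share was 3.15% when LPD H3K27ac list 1 was left out of the rule. The 5 regions were inside Mypn, at chr3:52567067-52569738 (nearest coding start Foxo1), beside Prmt5, which encodes an arginine methyltransferase, inside Pakap, which encodes an A-kinase anchoring protein, and at chr13:107094776-107095648. The CBP peak covered 330 bp at Mypn and 75 bp at Prmt5. At Prmt5 H3K18ac covered 0 and 0 bp in LPD, against 916 and 1129 bp in B cells. The region on chromosome 13, where 7 bp of a CBP peak overlapped, kept H3K18ac (764 and 732 bp in LPD, against 873 and 873 bp in B cells). In the 371 regions lost in LPD only, 5 (1.35%) had a CBP peak, and 3.84% of the 1821 lost in null progenitors only did. A low share was thus not particular to the chosen regions. The CBP list has no replicate.

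Coding genes with a chosen region numbered 305, which is 3.34% of the 9140 genes with a region of the 3 wild-type lists. Of these, 174 (57.0%) also had a region of all 6 lists, so that H3K27ac was not missing from the whole gene. The genes with 3 or more chosen regions were Sema4d and Sorl1 with 4 and Prex1, Susd1, Bckdha, Trio, Pde4d and Plcg1 with 3. Long genes collect more regions, and neighbouring peaks of 1 locus are not separate events. Sorl1 encodes a sorting receptor, and 4 of its 5 wild-type regions were chosen. All 4 lost both other marks: at chr9:42028074-42030158 H3K18ac covered 0 and 0 bp in LPD, against 1090 and 1217 bp in B cells, and at chr9:42033100-42034632 H3K56ac covered 0 and 0 bp in LPD, against 847 and 378 bp in B cells. Sema4d encodes the semaphorin CD100 of lymphocytes, and 4 of its 14 wild-type regions were chosen while 4 others were in all 6 lists. H3K18ac was lost at 3 of them, with 0 and 0 bp in LPD, against 1913 and 1560 bp in B cells, at chr13:51797222-51799656. In Prex1 and in Trio, 1 of the 3 regions kept H3K18ac. At Susd1 and at Bckdha, a subunit gene of branched-chain ketoacid dehydrogenase, no region lost H3K18ac, and at Plcg1, a phospholipase C gene, H3K18ac was in none of the 4 lists.

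By gene groups, the counts were small. Among cAMP pathway and immediate early genes, 7 of 22 genes with a wild-type region had a chosen one. In this group 10 of 62 wild-type regions (16.1%) were chosen, against 3.35% of all wild-type regions. This group was known to have lost acetylation in these data when the regions were proposed, so its count is not independent. The genes were Fos and Fosb, which encode AP-1 subunits, the orphan nuclear receptor genes Nr4a1, Nr4a2 and Nr4a3, the CREB coactivator gene Crtc3 and the cAMP phosphodiesterase gene Pde4d. None of the 10 regions was within 1 kb of a coding start.

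Their other marks were mixed. All 3 Pde4d regions lost H3K18ac, the one at chr13:109822621-109823475 with 0 and 0 bp in LPD, against 485 and 455 bp in B cells. The Fosb region, 15125 bp from the start, kept H3K18ac (727 and 614 bp in LPD, against 646 and 690 bp in B cells). The Crtc3 region gained it (655 and 247 bp in LPD, against 0 and 0 bp in B cells). Fos, 3825 bp from its start, had 520 and 0 bp in LPD, against 474 and 459 bp in B cells. Neither Nr4a1 region had H3K18ac or H3K56ac in B cells, and both had H3K18ac in LPD list 2 (251 and 407 bp). Nr4a2 had 0 and 0 bp of H3K18ac in LPD, against 0 and 166 bp in B cells, and Nr4a3 had 246 and 0 bp in LPD, against 0 and 0 bp in B cells. By the definition used here, H3K18ac was lost at Pde4d alone among these genes. Other acetylated sequence stayed close to several of the regions. The nearest null H3K27ac peak lay 173 bp from the Pde4d region above, 473 bp from the Fosb region and 461 and 649 bp from the Nr4a1 regions, and a region of all 6 lists lay 77 bp from the Fosb region. Fos, Fosb, Nr4a1 and Crtc3 kept 4, 3, 5 and 3 regions of all 6 lists, whereas Pde4d had 0.

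B cell receptor signalling had 2 of 19 genes and 4 of 56 regions (7.14%): the phospholipase gene Plcg2, where 1 of 2 regions lost H3K18ac (0 and 0 bp in LPD, against 282 and 422 bp in B cells), and the phosphoinositide 3-kinase gene Pik3cd, where H3K56ac was in none of the 4 lists. Cytokine signalling had 3 of 17 genes and 3 of 37 regions (8.11%), at Jak1, a receptor kinase gene, Ifngr1, of the interferon gamma receptor, and Il10ra, of the interleukin-10 receptor, and H3K56ac was in no list at any of them. B cell identity had 1 of 17 genes, the antigen receptor chain gene Cd79a, where the region lay 925 bp from the start, neither other mark was called and a null H3K27ac peak lay 407 bp away. Homing and adhesion had 1 of 13, the chemokine receptor gene Cxcr4, whose region 8530 bp from the start gained H3K18ac (655 and 350 bp in LPD, against 0 and 0 bp in B cells). Germinal centre and plasma cell genes had 1 of 8, the syndecan gene Sdc1, where H3K18ac covered 342 and 0 bp in LPD, against 0 and 0 bp in B cells. Genes altered in lymphoma had 2 of 19, among them Foxp1. For comparison, 3.34% of all genes with a wild-type region had a chosen one, and 3.35% of all wild-type regions were chosen. The group counts are small and were not tested.

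None of the genes with wild-type regions had a chosen one among early B and lymphoid progenitor genes (0 of 10), MHC class II presentation (0 of 10), NF-kB and TNF receptor (0 of 16), acetyltransferases and deacetylases (0 of 18), DNA damage and p53 (0 of 18), stem and progenitor (0 of 4), cell division (0 of 6), T and NK (0 of 4), myeloid (0 of 2), erythroid (0 of 1) and housekeeping genes (0 of 12). With 3.34% of all genes touched, 0 or 1 genes in groups of this size is near the background. Crebbp, which is deleted in the null animals, had 0.239 kb of H3K27ac in null progenitors, against 0.507 kb in wild-type progenitors, and 1.69 and 1.56 kb in LPD, against 1.76 and 1.82 kb in B cells. Acetylation over a gene does not check a deletion inside it. Ep300 had 1.27 kb in null progenitors, against 1.35 kb in wild-type progenitors, and 2.18 and 2.12 kb in LPD, against 1.60 and 1.82 kb in B cells.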

How the data were processed

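Peak lists of 15 of the 30 samples were analysed: 14 acetylation lists and 1 CBP list. The 14 RNA samples and the input were not analysed here. The authors' tools were MACS2 2.0.10, Bowtie2 2.1.0, bedtools and Picard, on build mm10, per the submitters' processing notes, and their settings are not given in the sources used here. The deposited files give chromosome, start and end of peaks per library, with no score, so depth is unknown and a shallower library can lose short peaks.

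Overlapping H3K27ac peaks were merged, and a region counted as present in a list from 1 bp of overlap with a peak. Regions were assigned to every coding gene (RefSeq, GRCm38.p6) whose span widened by 1 kb they overlap, otherwise to the nearest gene end within 50 kb. Matched regions were paired without replacement on mean wild-type length. Shares were compared between 2 lists and 2 with an exact two-sided permutation test. The steps were tested on simulated data. Python 3.11.15, NumPy 2.4.6, pandas 2.3.3, SciPy 1.17.1 and Matplotlib 3.10.9 were used.

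The regions and gene lists were chosen with earlier results of these data known. Named are the 20 longest regions, genes with 3 or more, gene group members with one, those with a CBP peak, the longest with both other marks lost (10) or kept (5), the 5 longest at gene ends, Crebbp and Ep300. The shorter regions that kept both marks, the genes with a promoter window shown, and those on sex chromosomes were named after their values were seen. An item that meets this rule is not reported here.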

Additional observations from a re-analysis of the deposited data

How the results depend on the processing

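The 4 differences in H3K18ac and H3K56ac share stayed negative under every alternative run, from -48.8 to -17.5 and -47.0 to -24.7 points at the chosen regions and from -54.8 to -22.0 and -56.0 to -32.9 points against the matched ones, with the ends nearest 0 from H3K27ac lists of equal length or without LPD list 1. With the replicate block (2 same-numbered pairs, exact sign-flip permutation test) the differences were -31.1, -38.8, -50 and -50.5 with p = 0.5, the smallest it allows. The samples share only a number. Every alternative kept the contrast of LPD with B cells in the H3K27ac rule, so the negative sign is not independent of it.

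Which regions qualify depends on the peak lists. With only peaks of at least 500 bp there were 197, of which 27 overlapped the 381, and with H3K27ac lists cut to the widest 13125 peaks there were 205, of which 88 did. The first drops short peaks from every list, and the second from all but the null progenitor list, which is the shortest and stays whole. Leaving out 1 list gave 390 to 603. With peaks of at least 500 bp, 9.64% kept H3K18ac, 21.3% lost H3K56ac and 4.06% had CBP. With equal H3K27ac lists 50.2% kept and 18.5% lost H3K18ac, 26.3% kept H3K56ac and 6.34% had CBP. With equal H3K18ac and H3K56ac lists 7.09% kept and 39.6% lost H3K18ac, and 0.525% kept H3K56ac. H3K56ac was lost at 38.4% when peaks within 500 bp were merged, and at 37.0% of the 281 regions with no null peak within 1 kb, a setting chosen after seeing the data, as were autosomes only and matching on progenitor and B cell length. Within 5 kb of a gene end lay 36.7%. Leaving out 1 list gave 13.6 to 25.7% (H3K18ac kept), 17.4 to 36.7% (lost), 3.18 to 10.4% (H3K56ac kept), 22.4 to 40.7% (lost), 0.875 to 3.15% (CBP) and 21.4 to 27.2% (gene ends). Causes were not tested beyond this.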
